A study of Mus musculus with 35 samples.

Results

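RNA levels of genes for cholesterol and fatty acid synthesis, for sterol sensing and for sterol efflux were compared between HSPCs of WT and JMJD1B-/- mice. The 41 genes were named from the textbook pathways, and the rule uses no measured value. Of these, 39 were listed in the deposited table of 11982 gene names and all 39 could be tested, since each averaged at least 0.5 RPKM over the libraries, while Hmgcs1 and Nr1h3 were not analysed here. The study asked which genes depend on JMJD1B (gene Kdm3b), a histone demethylase, in HSPCs, the hematopoietic stem and progenitor cells of bone marrow. Polyadenylated RNA of HSPCs was sequenced in 2 WT and 2 JMJD1B-/- libraries, from adult mice of a 129P2xC57BL/6J background. The knockout was made by a gene trap, and no restriction to a cell type is named for it. Neither the age nor the sex of the animal behind each library is labelled. The labels do not say whether each library came from 1 animal, so p-values measure the spread between these libraries.

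Cholesterol is built from acetyl-CoA through mevalonate, farnesyl diphosphate and squalene. When sterol in the endoplasmic reticulum is low, SCAP escorts the transcription factors SREBP1 and SREBP2 to the Golgi for cleavage, and they then raise transcription of synthesis genes. When sterol is plentiful, INSIG proteins hold SCAP back. Oxysterols activate the LXR receptors, which drive the efflux pumps ABCA1 and ABCG1 and the gene of SREBP1. Dividing blood progenitors need sterols and fatty acids for new membrane.

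Promoters of sterol synthesis genes are known for carrying a CCAAT box, bound by NF-Y, which works beside SREBP. The 250 bases before each RefSeq transcript start (GRCm38.p6) were searched on both strands for CCAAT and for TCACNCCAC, the core letters of a sterol regulatory element, and neither motif contains the other. A window was found for 34 of the 41 genes, and it was missing for Fdps, Fdft1, Sqle, Scd1, Scd2, Fads1 and Abcg1. CCAAT was found in 24 of the 34 (70.6%), beside 41.4% of the 9524 genes of the expression table with a window and 37.5% of all 27025 genes with one. It was found in 14 of 15 sterol synthesis members and in 10 of the 19 others. TCACNCCAC was found in 2 of the 34 (5.88%), Hmgcs1 and Acsl1, beside 1.1% of the table's genes. A letter match is a description and not a binding site. The 100 bases before the start are shown for 6 sterol members to let the boxes be compared, each 5′ to 3′ on the gene's strand, with CCAAT or its reverse complement ATTGG in capitals. Mvk held 3 boxes in this stretch, Mvd, Idi1 and Sc4mol (Msmo1 in RefSeq) held 2 each, and Lss and Cyp51 held 1 each.
Mvk (chr5:114444169-114444268, plus strand): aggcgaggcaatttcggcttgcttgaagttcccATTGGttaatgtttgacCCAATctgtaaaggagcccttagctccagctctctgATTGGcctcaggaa
Mvd (chr8:122443423-122443522, minus strand): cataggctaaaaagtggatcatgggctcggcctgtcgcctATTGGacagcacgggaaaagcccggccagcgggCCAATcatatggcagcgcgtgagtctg
Idi1 (chr13:8885506-8885605, plus strand): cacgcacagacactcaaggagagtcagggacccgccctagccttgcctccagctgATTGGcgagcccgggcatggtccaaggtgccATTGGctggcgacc
Lss (chr10:76531505-76531604, plus strand): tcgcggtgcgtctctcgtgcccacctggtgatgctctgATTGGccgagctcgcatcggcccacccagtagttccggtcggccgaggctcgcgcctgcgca
Cyp51 (chr5:4104698-4104797, minus strand): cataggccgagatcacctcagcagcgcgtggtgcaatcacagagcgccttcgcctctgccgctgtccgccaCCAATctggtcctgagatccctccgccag
Sc4mol (chr8:64733579-64733678, minus strand): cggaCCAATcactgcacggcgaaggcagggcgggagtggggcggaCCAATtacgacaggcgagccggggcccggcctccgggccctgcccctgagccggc

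The label of the knockout was checked by Kdm3b. Its level was 31.0 and 24.3 RPKM in WT and 4.00 and 4.63 RPKM in JMJD1B-/-, and limma gave a log2 fold change of -2.65 (SE 0.24, adjusted p = 0.0314). This call was lost after rescaling and with either WT library left out (log2 fold change -2.47 without WT replicate 1 and -2.82 without WT replicate 2).

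The libraries differed in depth and make-up. Their depth was estimated at 17500000 and 24600000 reads for WT and 6100000 and 21000000 for JMJD1B-/-, so JMJD1B-/- replicate 1 had the fewest reads, and 3 reads on a transcript of 2 kb equal 0.246 RPKM there and at most 0.0857 elsewhere. WT replicate 2 was the only library with Xist (332 RPKM, at most 0.051 RPKM in the others) and had the lowest Y-linked RNA, so sex was unequal between the groups. Of 12 stem and progenitor markers, 10 had a log2 fold change below 0 (median -0.63) and 5 were lower at an unadjusted p under 0.05 (Cd34, Flt3, Gata2, Meis1 and Mecom), while Kit overlapped between the genotypes at 51.6 to 92.7 RPKM. Markers of other cells moved with genotype. All 12 erythroid markers were higher in both JMJD1B-/- libraries than in both WT libraries (summed level 811 and 1164 RPKM in WT, 2233 and 3394 RPKM in JMJD1B-/-), and 11 of them passed an unadjusted p under 0.05. All 8 basophil and mast cell markers were lower (summed level 579 and 629 against 141 and 93.3 RPKM), and 1 of these, Gata2, also marks progenitors. Of 9 granulocyte markers tested, 6 were lower and 2 higher at that threshold. Of 8 megakaryocyte markers 6 were lower, and of 8 monocyte and macrophage markers 4 were lower. T and NK cell markers summed to 86.6 RPKM in JMJD1B-/- replicate 1 and to 18.4 to 37.3 RPKM in the other libraries. The 7 marrow adipocyte and stroma markers summed to 40.2 RPKM in WT replicate 2 and to 5.45 to 10.1 RPKM in the other libraries (Col1a1 15.7 RPKM against at most 2.13 RPKM), and Adipoq, the adipocyte hormone, was listed at 0 in WT replicate 1. All 6 endothelial markers had a log2 fold change below 0, and 2 were lower at an unadjusted p under 0.05. In bulk RNA, fewer cells of a type and less RNA per cell cannot be told apart. The part of these markers in the results below was not tested.

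None of the 39 lipid genes differed by more than 2-fold between the genotypes (8.89% of all genes tested did), and the median size of their log2 fold change, 0.30, was not below that of all genes tested, 0.26. Sqle, the squalene epoxidase gene, was the only one of the 39 with an unadjusted p under 0.05 in limma. It was higher in JMJD1B-/- HSPCs. Of all 11863 genes tested, 452 (3.81%) were higher and 751 (6.33%) lower at that threshold, so 1 higher and 0 lower among the 39 were not above the background. After adjustment over all genes, 0 of the 39 and 5 of the 11863 (0.0421%) had p under 0.05. The log2 fold change was above 0 for 27 and below 0 for 12, with a median of 0.19 (range -0.57 for Mvk to 0.91 for Scd1), beside a median of -0.02 over all genes tested. For 25 of the 39 (64.1%) the 95% interval lay within 2-fold in either direction, beside 54.7% of all genes. For the other 14 the interval reached past 2-fold. Both JMJD1B-/- libraries were above both WT libraries for 14 genes (20.1% of all genes tested) and below for 6 (22.7% of all genes tested), and the groups overlapped for 19.

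The direction rested partly on single libraries. WT replicate 1 held the lowest value for 21 of the 39 genes, and JMJD1B-/- replicate 2 held the highest for 15. Without WT replicate 1, 24 were above 0 with a median log2 fold change of 0.08, and without WT replicate 2, 28 were above 0 with a median of 0.29. The median size of the genotype difference (0.30 on the log2 scale) was close to the median difference between the 2 JMJD1B-/- libraries (0.31) and above that between the 2 WT libraries (0.23).

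**Figure D1:**
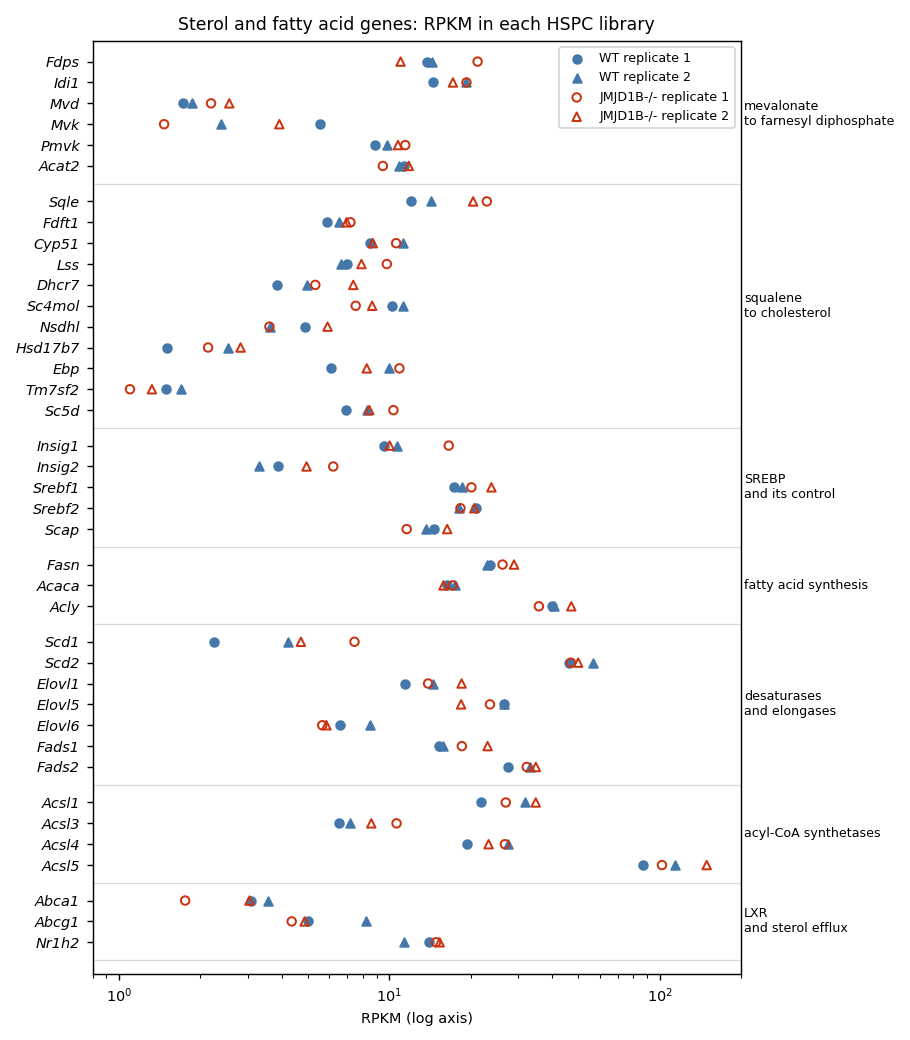
RPKM of 39 sterol and fatty acid genes (log axis) in each HSPC library, grouped by role, with WT in filled blue and JMJD1B-/- in open red symbols and circles and triangles for replicates 1 and 2. Levels run from 1.1 RPKM (Tm7sf2) to 149 RPKM (Acsl5), and the 4 symbols of most genes lie close together.

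RPKM is per length, so levels can be compared between genes. In WT, Acsl5 had the highest mean (100 ± 19.2 RPKM, SD, n = 2), above 96.7% of listed genes. Scd2 (51.5 ± 7.17 RPKM) and Acly (40.4 ± 0.613 RPKM) followed, and the difference between Acsl5 and Scd2 was beyond their spread. Tm7sf2 (1.60 ± 0.139 RPKM), Mvd (1.80 ± 0.0937 RPKM) and Hsd17b7 (2.02 ± 0.731 RPKM) were lowest, and the WT values of Hsd17b7 overlapped those of both others. Sterol synthesis enzymes reached at most 16.9 RPKM in WT (Idi1), whereas 4 of 10 fatty acid synthesis, desaturation and elongation genes were above 25 RPKM.

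Among genes from acetyl-CoA to farnesyl diphosphate, 6 of 7 were tested and 0 passed an unadjusted p under 0.05. Their median log2 fold change was 0.12, and it ran from 0.052 without WT replicate 1 to 0.24 without JMJD1B-/- replicate 2. Mvk, the mevalonate kinase, had 5.54 and 2.38 RPKM in WT and 1.47 and 3.93 RPKM in JMJD1B-/-. Its groups overlapped, and it had both the largest difference between WT libraries (2.27-fold after 0.1 RPKM was added to each) and the largest between JMJD1B-/- libraries (1.36 on the log2 scale). Without JMJD1B-/- replicate 1 its log2 fold change was 0.11, and without replicate 2 of that genotype it was -1.25. Fdps, which makes farnesyl diphosphate, had 13.8 and 14.4 RPKM in WT and 21.2 and 11.0 RPKM in JMJD1B-/-. JMJD1B-/- replicate 1 was thus the highest library and replicate 2 the lowest, and the log2 fold change of 0.11 turned to -0.36 without replicate 1. Mvd, the decarboxylase, had 1.73 and 1.86 RPKM in WT and 2.19 and 2.56 RPKM in JMJD1B-/-. Pmvk, which adds the next phosphate after Mvk, had 8.89 and 9.81 RPKM in WT and 11.5 and 10.8 RPKM in JMJD1B-/-. For both, the JMJD1B-/- libraries were above the WT libraries, and the 95% interval of the log2 fold change ran from -0.61 to 1.38 for Mvd and from -0.28 to 0.78 for Pmvk. Idi1, the isomerase, and Acat2, which joins acetyl-CoA units, had overlapping groups with log2 fold changes of 0.12 and -0.07. Acat2 has a near-identical neighbour, Acat3, so reads may be split between them.

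All 11 genes from squalene to cholesterol were tested, and 8 had a log2 fold change above 0 (median 0.28). Without WT replicate 1, 6 were above 0 with a median of 0.11, and without JMJD1B-/- replicate 1 the median was 0.16. Sqle catalyses the first oxygen-requiring step of sterol synthesis, which is also a point of control. It had 12.0 and 14.3 RPKM in WT and 23.0 and 20.4 RPKM in JMJD1B-/-. The libraries did not overlap, and the JMJD1B-/- mean of 21.7 ± 1.79 RPKM was 165% of the WT mean of 13.2 ± 1.65 RPKM (SD, n = 2 each). The log2 fold change was 0.72 (SE 0.21, 95% interval 0.23 to 1.21, or 1.17- to 2.32-fold), with an unadjusted p of 0.0104 and an adjusted p of 0.348 by limma. It kept an unadjusted p under 0.05 under each scaling, pseudocount and filter and in the gene-by-gene test (p = 0.042, n = 2 each, not an exact test, since an exact permutation of 2 against 2 cannot go below 0.333). Without WT replicate 1 it did not pass (log2 fold change 0.59, unadjusted p = 0.105 by limma).

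The neighbours of Sqle in the pathway did not pass the test. Fdft1, the squalene synthase, had 5.88 and 6.54 RPKM in WT and 7.19 and 6.96 RPKM in JMJD1B-/-, and its log2 fold change was 0.19 (95% interval -0.41 to 0.79). Lss, which closes the ring to lanosterol, had 6.98 and 6.63 RPKM in WT and 9.80 and 7.90 RPKM in JMJD1B-/-. Dhcr7, the last reductase before cholesterol, had 3.83 and 4.97 RPKM in WT and 5.33 and 7.37 RPKM in JMJD1B-/-, and Sc5d, a sterol desaturase, had 6.95 and 8.29 RPKM in WT and 10.4 and 8.44 RPKM in JMJD1B-/-. In all 4 genes the JMJD1B-/- libraries lay above the WT libraries, with unadjusted p from 0.148 (Dhcr7) to 0.49 (Fdft1). Sc4mol, which oxidises the methyl groups of lanosterol products, lay the other way, with 10.2 and 11.2 RPKM in WT and 7.52 and 8.65 RPKM in JMJD1B-/- (log2 fold change -0.41, unadjusted p = 0.127 by limma). Tm7sf2, a sterol reductase, also lay lower, with 1.499 and 1.70 RPKM in WT and 1.1 and 1.33 RPKM in JMJD1B-/-. At 1 to 2 RPKM its 95% interval was wide, from -1.59 to 0.84. Hsd17b7, a ketosteroid reductase, had 1.51 and 2.54 RPKM in WT and 2.14 and 2.82 RPKM in JMJD1B-/-, with overlap. Cyp51, the lanosterol demethylase, had a log2 fold change of -0.02 and overlapping groups. The dehydrogenase gene Nsdhl and the isomerase gene Ebp are X-linked and had overlapping groups. Their log2 fold changes of 0.13 and 0.28 were -0.08 and 0.63 once WT replicate 2, which held the Xist RNA, was left out. Leaving out other libraries moved them as well. Nsdhl was at 0.48 without JMJD1B-/- replicate 1 and at -0.22 without JMJD1B-/- replicate 2, and Ebp was at -0.07 without WT replicate 1. Whether sex goes with these shifts was not tested.

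**Figure D2:**
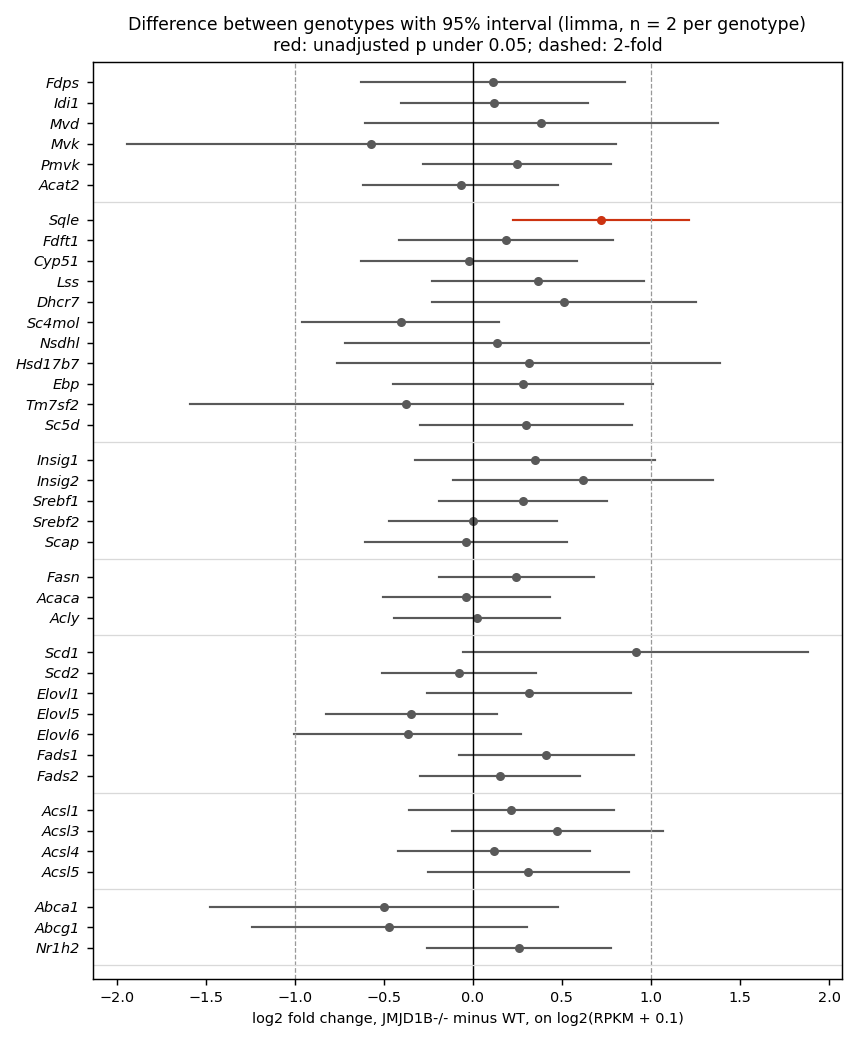
Log2 fold change of each gene, JMJD1B-/- minus WT, with its 95% interval from limma (n = 2 libraries per genotype). Sqle at 0.72 is the only gene in red (unadjusted p under 0.05), and 25 of the 39 intervals lie within the dashed 2-fold lines.

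The 5 genes of the SREBP switch showed a median log2 fold change of 0.28 (0.16 without JMJD1B-/- replicate 2), and 0 passed an unadjusted p under 0.05. Srebf2, whose product favours sterol synthesis genes, had 20.9 and 18.1 RPKM in WT and 18.4 and 20.7 RPKM in JMJD1B-/-. Its means were 19.5 RPKM in both genotypes, with a 95% interval of the log2 fold change from -0.47 to 0.47. Srebf1, whose product favours fatty acid genes, had 17.4 and 18.7 RPKM in WT and 20.1 and 23.9 RPKM in JMJD1B-/-, with no overlap and an unadjusted p of 0.20 by limma. The ratio of Srebf2 to Srebf1 was 1.202 and 0.97 in WT and 0.91 and 0.86 in JMJD1B-/-. Scap had overlapping groups and a log2 fold change of -0.04. Insig1, itself a classic SREBP target, had 9.59 and 10.7 RPKM in WT and 16.6 and 10.04 RPKM in JMJD1B-/-. Only JMJD1B-/- replicate 1 stood above WT, and the log2 fold change of 0.35 was -0.01 without it and 0.71 without JMJD1B-/- replicate 2. Insig2 had 3.88 and 3.31 RPKM in WT and 6.21 and 4.95 RPKM in JMJD1B-/-. Its groups did not overlap, with a log2 fold change of 0.62 (SE 0.31, unadjusted p = 0.087 and adjusted p = 0.564 by limma), and it passed an unadjusted p under 0.05 after quantile normalization (0.77). The Insig1 to Insig2 ratio was 2.47 and 3.23 in WT and 2.67 and 2.03 in JMJD1B-/-.

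The 3 fatty acid synthesis genes differed by less than 2-fold. Acly, which makes cytosolic acetyl-CoA from citrate, had 40.0 and 40.8 RPKM in WT and 35.8 and 47.2 RPKM in JMJD1B-/-, so the JMJD1B-/- libraries lay on either side of WT. Acaca, the acetyl-CoA carboxylase, had 16.4 and 17.5 RPKM in WT and 17.2 and 15.9 RPKM in JMJD1B-/-. Fasn, the fatty acid synthase, had 23.6 and 23.0 RPKM in WT and 26.3 and 29.0 RPKM in JMJD1B-/-. Fasn alone did not overlap, and its mean was 119% of WT (unadjusted p = 0.227 by limma). The 95% intervals of the 3 log2 fold changes lay between -0.50 and 0.68, within 2-fold in either direction.

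Desaturases introduce unsaturated bonds into fatty acids and elongases lengthen them, and 4 of these 7 genes had a log2 fold change above 0 (median 0.15). The median was 0.017 without WT replicate 1, 0.29 without WT replicate 2 and 0.095 without JMJD1B-/- replicate 2. Scd1 had the largest difference of the 39, with 2.25 and 4.24 RPKM in WT and 7.44 and 4.72 RPKM in JMJD1B-/-. The groups did not overlap, but WT replicate 2 and JMJD1B-/- replicate 2 were close, and the log2 fold change of 0.91 (SE 0.41) had an unadjusted p of 0.0607 and an adjusted p of 0.509 by limma. It was 0.47 without WT replicate 1 and 1.36 without WT replicate 2. Scd2, the more abundant desaturase here, had 46.4 and 56.6 RPKM in WT and 47.0 and 50.0 RPKM in JMJD1B-/-. The Scd2 to Scd1 ratio was 20.6 and 13.3 in WT and 6.31 and 10.6 in JMJD1B-/-. The Scd genes are close paralogs, and how reads shared by them were counted is not given in the sources used here. Fads1, which desaturates polyunsaturated chains, had 15.2 and 15.9 RPKM in WT and 18.6 and 23.1 RPKM in JMJD1B-/- (log2 fold change 0.41, unadjusted p = 0.0884 by limma), and it passed an unadjusted p under 0.05 after median-ratio scaling and quantile normalization (0.42 in each). Fads2, its partner enzyme, overlapped (0.15). Elovl5, which extends polyunsaturated chains, had 26.7 and 26.5 RPKM in WT and 23.6 and 18.5 RPKM in JMJD1B-/-. Elovl6, which extends saturated and monounsaturated chains, had 6.56 and 8.47 RPKM in WT and 5.65 and 5.86 RPKM in JMJD1B-/-. Both lay below WT without passing the test (unadjusted p = 0.132 and 0.217 by limma), while Elovl1, which makes very long chains, overlapped at a log2 fold change of 0.31.

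Acyl-CoA synthetases attach coenzyme A to fatty acids so that they can be used. All 4 had a log2 fold change above 0 (median 0.26), with a median of 0.13 without JMJD1B-/- replicate 2 and of 0.49 without WT replicate 2, and 2 of 4 were above 0 without WT replicate 1 (median 0.033), while 0 passed an unadjusted p under 0.05. Acsl5 had 86.9 and 114 RPKM in WT and 102 and 149 RPKM in JMJD1B-/-, with overlap. Acsl3 had 6.53 and 7.19 RPKM in WT and 10.6 and 8.59 RPKM in JMJD1B-/-, without overlap (log2 fold change 0.47, unadjusted p = 0.10 by limma). Acsl1 and the X-linked Acsl4 overlapped, and both were below 0 without WT replicate 1 (-0.05 and -0.13). Without WT replicate 2, Acsl4 was at 0.37.

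Neither efflux gene passed the test. Abca1, the pump that loads cholesterol onto apolipoprotein, had 3.09 and 3.56 RPKM in WT and 1.76 and 3.05 RPKM in JMJD1B-/-. Abcg1, which passes cholesterol to high-density lipoprotein, had 5.01 and 8.20 RPKM in WT and 4.36 and 4.87 RPKM in JMJD1B-/-. The groups did not overlap for either gene, though JMJD1B-/- replicate 2 was close to WT replicate 1 for both, and the log2 fold changes of -0.50 (SE 0.42) and -0.47 (SE 0.33) had unadjusted p of 0.268 and 0.197 by limma. Each rested largely on 1 library, since the log2 fold change of Abca1 was -0.12 without JMJD1B-/- replicate 1 and that of Abcg1 was -0.12 without WT replicate 2. Nr1h2, the gene of LXR beta, had 14.1 and 11.3 RPKM in WT and 14.9 and 15.4 RPKM in JMJD1B-/- (log2 fold change 0.26).

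**Figure D3:**
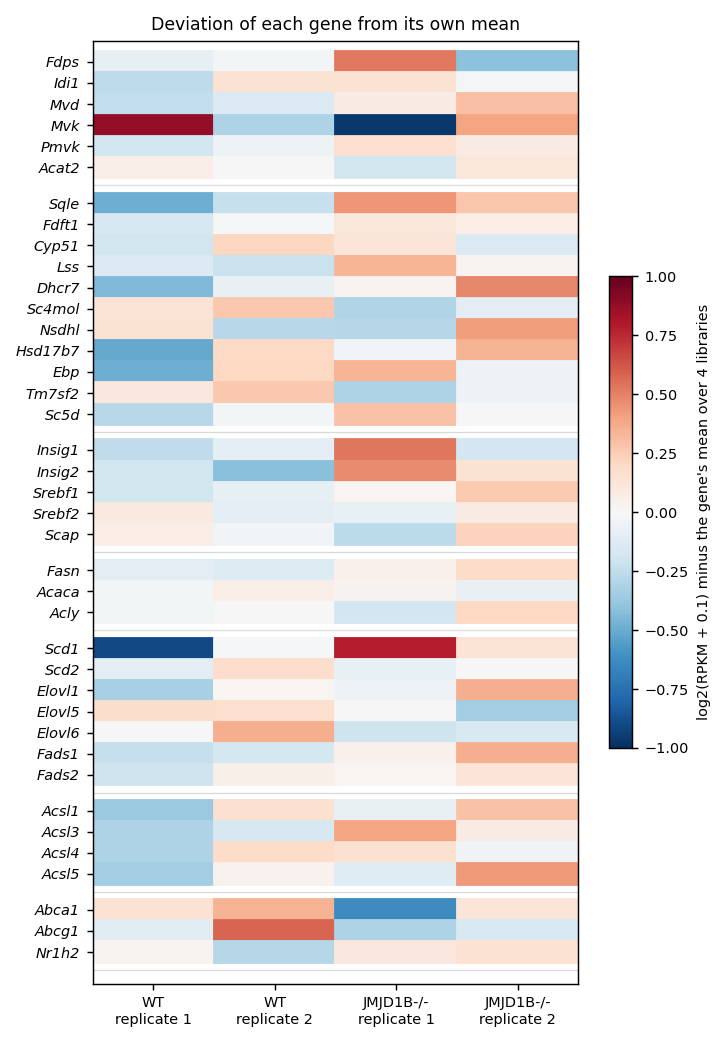
Deviation of log2(RPKM + 0.1) from each gene's mean over the 4 libraries (blue lower, red higher), by library and role. WT replicate 1 is lowest for 21 of the 39 genes, and Insig1, Fdps and Sqle are highest in JMJD1B-/- replicate 1, where Mvk and Abca1 are lowest.

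The calls depended on which JMJD1B-/- library was kept. With JMJD1B-/- replicate 2 left out, 6 members were higher at an unadjusted p under 0.05 (Sqle, Fdps, Insig1, Insig2, Scd1 and Acsl3) and 2 lower (Mvk and Abca1), beside 6.15% higher and 14.9% lower of all genes tested in that fit. With JMJD1B-/- replicate 1 left out, 5 were higher (Sqle, Dhcr7, Fads1, Elovl1 and Acsl5) and 1 lower (Elovl5), beside 11.6% and 11.5% of all genes. Sqle was the only gene in both lists. The difference between the 2 fits was not tested, and Insig2 (0.78 and 0.45), Scd1 (1.24 and 0.59), Acsl3 (0.63 and 0.32), Fads1 (0.25 and 0.57) and Dhcr7 (0.28 and 0.74) had log2 fold changes above 0 without JMJD1B-/- replicate 2 and without replicate 1. In these fits the remaining JMJD1B-/- library is assumed to vary as the WT pair did. JMJD1B-/- replicate 1 was also the library with the fewest reads and the most T and NK cell RNA, and JMJD1B-/- replicate 2 the one with the most erythroid RNA. Whether these go with the lipid genes was not tested.

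Other genes of the same pathways were read from lists outside the 39. Of 82 tested, 3 were higher and 5 lower at an unadjusted p under 0.05, and 0 passed after adjustment. These counts were close to what the shares over all genes tested (3.81% higher and 6.33% lower) give for a list of this size. Among 24 further genes of sterol synthesis, uptake and transport, the median log2 fold change was -0.04. Soat1, which esterifies cholesterol for storage, was lower, with 5.73 and 5.09 RPKM in WT and 1.77 and 2.10 RPKM in JMJD1B-/- (log2 fold change -1.44, SE 0.35, unadjusted p = 0.00378 and adjusted p = 0.258 by limma). Lrp8, a lipoprotein receptor, was lower (-0.67) and Abcg4, a sterol transporter, higher (0.85). Among 29 genes of fatty acid and glycerolipid synthesis (median 0.02), Mlxip, a glucose-sensing factor, was lower (-0.60) and Lpin1, a phosphatidate phosphatase, higher (0.79). Among 29 genes of fatty acid oxidation (median 0.01), Ehhadh of peroxisomes was lower (-1.53) and Eci2, an isomerase for unsaturated chains, higher (0.70). The 7 genes named here lost the unadjusted call when WT replicate 1 was left out, with log2 fold changes that kept their sign: Soat1 (-1.36), Lrp8 (-0.75), Abcg4 (0.43), Lpin1 (0.87), Mlxip (-0.52), Ehhadh (-1.41) and Eci2 (0.64).

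Genes of cell division were read beside the lipid genes, since dividing cells use both. All 18 proliferation genes had a log2 fold change above 0 (median 0.30), beside 5578 of all 11863 genes tested, and 3 of the 18 were higher at an unadjusted p under 0.05, beside 3.81% of all genes. Their summed level was 1258 and 1475 RPKM in WT and 1597 and 1666 RPKM in JMJD1B-/-. As for the lipid genes, WT replicate 1 was the lowest library of this sum. The sum of the 39 lipid genes was 564 and 648 RPKM in WT and 645 and 707 RPKM in JMJD1B-/-, with overlap. Whether the proliferation genes and the lipid genes go together was not tested.

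**Figure D4:**
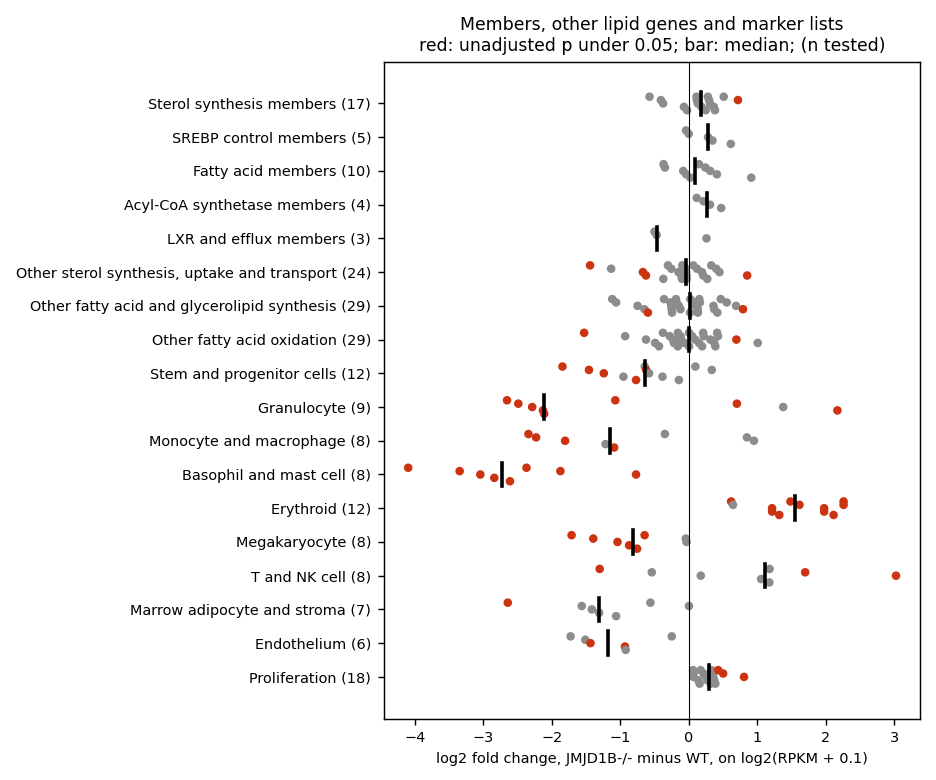
Log2 fold change (JMJD1B-/- minus WT, each point 1 gene) for the lipid genes by role, other lipid genes and marker lists, with the number of genes tested in brackets and the median as a bar. Medians of the lipid lists lie between -0.47 and 0.28, while those of erythroid markers (1.55) and of basophil and mast cell markers (-2.73) lie further out.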

How the data were processed

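RNA-seq of HSPCs was analysed from 2 WT and 2 JMJD1B-/- libraries. In the deposited table the authors give RPKM values plus 1. The added 1 was removed here, and the 84 entries that share 42 names were averaged. The table lists genes that reach 1 RPKM in at least 1 library. The submitters' processing notes name Novoalign, TopHat2 and mm9 for the series, without saying which step used which, and the counting program and annotation are not given in the sources used here. The library kit does not mark strand, so reads from a stretch shared by overlapping genes cannot be told apart by strand. The RefSeq spans of Fdft1, Srebf1, Acaca, Elovl1 and Acsl3 overlap those of Ctsb, Rai1, Tada2a, Cdc20 and Utp14b, respectively. These are whole spans with introns, and how much exon sequence is shared was not examined.

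The model was limma's (version 3.58.1, R 4.3.3, eBayes with a trend, no replicate term), fitted to log2(RPKM + 0.1) of every gene averaging 0.5 RPKM or more, with p adjusted by Benjamini-Hochberg over all 11863 genes. The fold change on this scale understates that of low genes. Intervals are 95% and tests two-sided. limma stands in for the two-tailed Student test of the study's methods, which was run as the gene-by-gene alternative. The fit was also run on simulated data, with changes larger than those of any member. That run therefore does not show how the fit behaves at the sizes seen here.

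Depth was estimated from genes whose 4 values fit whole reads (72 genes, 9 of which gave the same depth within 0.2%, at most 2 gave any other), and rests on counting error only. No count test was run. Alternatives were pseudocounts of 1 and 0.01, no filter, a mean of at least 1 RPKM, median-ratio scaling, quantile normalization, the gene-by-gene test, limma without trend, a replicate block and leaving out each library.

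The members and gene lists were chosen with earlier results of these data known. Members with an unadjusted p under 0.05, nodes of each pathway, the 3 highest, the 3 lowest and the 3 with the largest difference between JMJD1B-/- libraries were given with every value, and of other lists only genes with an unadjusted p under 0.05, apart from Kdm3b. In the lists of other genes, 1 gene with a lower call is counted but not reported here. Members without overlap between genotypes and the markers given singly were added after their values were seen. Python 3.11.15 with pandas 2.3.3, numpy 2.4.6, scipy 1.17.1 and matplotlib 3.10.9 made the tables and figures. ChIP-seq samples were not used here. Promoter sequences came from RefSeq (GRCm38.p6).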

Additional observations from a re-analysis of the deposited data

How the results depend on the processing

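No member passed an adjusted p under 0.05 in limma under any alternative or with any library left out, beside 1 at an unadjusted p under 0.05. Over all genes the number that passed was 5, and it was 1 to 989 with a library left out (989 without JMJD1B-/- replicate 1 and 547 without replicate 2 of that genotype) and 256 with a replicate block. It was 18 with a pseudocount of 1, 3 with one of 0.01 and with a mean of at least 1 RPKM, 1 after either rescaling, and 0 in limma without trend and in the gene-by-gene test, where 768 and 512 genes were lower and 346 and 348 higher at an unadjusted p under 0.05. The number higher at an unadjusted p was 2 after median-ratio scaling (Sqle and Fads1), 3 after quantile normalization (with Insig2 added) and 0 to 6 with a library left out, and the number lower was 0 to 2. Of all genes tested, 190 to 1777 were lower and 127 to 1367 higher with a library left out. The share of calls that were lower was 62.4%, 54.4% after median-ratio scaling and 51.4% after quantile normalization. Among the 82 other genes of the pathways, 1 to 16 were lower and 1 to 12 higher with a library left out, 3 lower in the gene-by-gene test, 7 higher after each rescaling and 1 higher in limma without trend. The median log2 fold change of the fatty acid members was 0.087, 0.050 after quantile normalization and 0.013 to 0.21 with a library left out.

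Kdm3b lost its adjusted call after median-ratio scaling (-2.63), quantile normalization (-2.59), in limma without trend and in the gene-by-gene test (-2.65 in both) and with a WT library left out (range over libraries -2.82 to -2.47). Quantile normalization turned the sign of Cyp51 (0.044), Srebf2 (-0.0018) and Acly (-0.017). With a library left out, the sign turned for Fdps (-0.36 to 0.58), Idi1 (-0.082 to 0.32), Mvk (-1.25 to 0.11), Acat2 (-0.23 to 0.088), Cyp51 (-0.22 to 0.18), Nsdhl (-0.22 to 0.48), Hsd17b7 (-0.046 to 0.67), Ebp (-0.067 to 0.63), Insig1 (-0.012 to 0.71), Srebf2 (-0.10 to 0.10), Scap (-0.29 to 0.21), Acaca (-0.092 to 0.019), Acly (-0.17 to 0.22), Scd2 (-0.22 to 0.063), Acsl1 (-0.049 to 0.48) and Acsl4 (-0.13 to 0.37). The cause was not tested.

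The genotypes share replicate numbers but no pairing is labelled, and the deviations of same-numbered libraries correlated at -0.05. With a replicate block, 914 genes were lower and 571 higher at an unadjusted p, 1 member was higher and 0 lower, 0 members passed after adjustment, and of the other pathway genes 6 were lower and 4 higher. In this balanced design a block cannot change a fold change, only its error (Kdm3b stays at -2.65), and Ehhadh did not pass.

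The depth of JMJD1B-/- replicate 1 (6100000 reads) limits the values of the lowest members. The 95% interval reached past 2-fold for 14 of the 39, and these were not only low genes. They included Sqle (mean 17.4 RPKM over the libraries) and Insig1 (11.7 RPKM). Whether depth goes with the wide intervals was not tested.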
